A study of Homo sapiens with 32 samples.

Results

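Genes of epithelial cell junctions, keratins and genes of the epithelial-to-mesenchymal transition (EMT) were followed here through the decay of their mRNA. Members were taken by gene name: claudins, keratins, cadherins, plakophilins, desmocollins, desmogleins and tight junction proteins, together with a short list of catenins, adhesion molecules and EMT regulators. After RefSeq transcript identifiers had been matched to current symbols, 71 protein-coding transcripts of 42 genes met this rule, among 15772 transcripts with a rate in either cell line. Both lines had rates for 59 of the 71 transcripts, which belonged to 38 genes, out of 12966 transcripts in all. By their textbook roles, 31 of the 59 (26 genes) were counted as epithelial and 16 (6 genes) as mesenchymal. The other 12 (6 genes) were catenins and cadherins counted on neither side.

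The lines compared were MDA-LM2 and its parent MDA-MB-231. MDA-MB-231 is an established human breast cancer line without oestrogen receptor that is widely used as a mesenchymal-type breast cancer model. MDA-LM2 is the derivative of it that was selected for metastasis to the lung. Each group is thus a single line, and the labels name no drug, allele or construct that sets the lines apart. Both were pulsed for 2 h with 4-thiouridine (4sU), a uridine analogue that marks newly made RNA, and were then moved to medium with excess uridine. Labelled RNA was collected at 0, 2, 4 and 7 h, in 32 libraries. Each line has 4 replicate series spanning those times, and each series gives 1 decay rate per transcript. A decay rate is positive where labelled RNA became less abundant with time and negative where it became more abundant. Values after ± give the SD between the 4 series, and limma standard errors (SE) where they follow a difference, which is always MDA-LM2 minus MDA-MB-231. The log base and scaling are unstated, so values stay in the deposited unit and no half-life is given. The labels do not say whether series are separate cultures, and p-values therefore cover the spread between series alone, which may be technical.

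Epithelial cells hold together through tight junctions, adherens junctions and desmosomes. Claudins and occludin seal tight junctions, cadherins coupled to catenins form adherens junctions, and desmosomal cadherins link through plakophilins and desmoplakin to the keratin network. In EMT, transcription factors such as ZEB1, ZEB2 and SNAI2 (Slug) repress epithelial genes, and the intermediate filament protein vimentin takes the place of keratins. The ZEB mRNAs are also known targets of the miR-200 family of microRNAs. A decay rate says how fast labelled RNA was lost, not how much of it a cell holds.

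Several classic members, E-cadherin (CDH1), N-cadherin (CDH2), P-cadherin (CDH3), SNAI1, TWIST1, GRHL2, ELF3 and OVOL1, are not analysed here, and KRT8 had a rate only as a non-coding entry, which the rule leaves out. Of marker genes for other cell types, those of fibroblasts, leukocytes and endothelium had no member measured (0 of 5, 0 of 4 and 0 of 3 genes), against 5 of 6 for a basal or mesenchymal breast line, 4 of 8 for luminal epithelium and 1 of 4 for myoepithelium. ESR1, PGR, GATA3 and FOXA1, the defining luminal genes, were among those without a rate. Decay rates of these markers cannot show the share of a cell type.

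Rates lay in a main body near 0 and in separate clusters far from it. Among the 59 members, 10 of 236 MDA-LM2 values (4.24%) and 51 of 236 MDA-MB-231 values (21.6%) lay further than 1 from 0, of which 5 and 30 were above 8. Over all transcripts these shares were 4.24% for MDA-LM2 and 18.3% for MDA-MB-231. Members thus had such values about as often as the transcriptome did, and in MDA-MB-231 far more often than in MDA-LM2. Series 1 and 3 of a line share the second number of their label, as do series 2 and 4. Over transcripts with all 8 rates within 1 of 0, such pairs had a mean Spearman correlation of 0.893 in MDA-LM2, against 0.745 for other pairs. In MDA-MB-231 these were 0.709 and 0.362. The main limma fit treats the 4 series of a line as independent, so its SE and p-values may be too small. Of the 9 members with exactly 2 rates beyond 1 in MDA-MB-231, 8 had them in such a pair, against 80.9% of all transcripts with exactly 2. The part of read depth or zero counts in these values was not tested. A transcript is called in range below when all 8 of its rates lie within 1 of 0, which held for 35 of the 59 members (59.3%) and for 65.5% of all transcripts. Transcripts that are 1 of several of their gene were in range less often (46.7% of 30 members, 47.7% of all such transcripts) than the single transcript of a gene (72.4% of 29 members, 73.2% of all such transcripts).

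Few members differed between the lines. In the limma fit across all 12966 transcripts, 2 members decayed more slowly in MDA-LM2, CLDN24 and CD24, both epithelial, and 2 decayed faster, 1 transcript each of CD44 and ZEB1, both mesenchymal. That is 2 of 59 in each direction, against a background of 6.04% of all transcripts called slower in MDA-LM2 and 1.9% called faster, at a limma adjusted p (Benjamini-Hochberg) under 0.05. Counts this small are close to the background and say nothing about the members as a class. At an unadjusted limma p under 0.05 the count was 18 of 59, against 25.2% of all transcripts. All MDA-LM2 rates lay below all MDA-MB-231 rates in 9 members (background 16.6%) and above them in 4 (background 5.83%). The mean rate was lower in MDA-LM2 in 39 members, against 66.2% of all transcripts. Where series that share a second number were treated as correlated, CLDN24 stayed called slower (background 2.97%) and the CD44 transcript faster (background 0.285%), and CD24 and ZEB1 had limma adjusted p = 0.167 and 0.124.

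The epithelial members as a group, like the catenins and other cadherins, had median rates below those of the transcriptome in both lines. The epithelial median rate was 0.123 ± 0.0271 in MDA-LM2, against 0.147 ± 0.0235 in MDA-MB-231 (mean and SD of the medians of 4 series). For catenins and other cadherins it was 0.107 ± 0.0256 in MDA-LM2, against 0.144 ± 0.0487 in MDA-MB-231. The median over all transcripts was 0.159 ± 0.0115 in MDA-LM2, against 0.182 ± 0.0156 in MDA-MB-231. Epithelial members and all transcripts thus both sat lower in MDA-LM2, by about the same step. In both sets the series medians of the lines overlapped, and the epithelial step was less than the SD of MDA-LM2. For the mesenchymal members the median was 0.177 ± 0.0192 in MDA-LM2, against 0.157 ± 0.0551 in MDA-MB-231, so it was higher in MDA-LM2, by less than the SD of MDA-MB-231. In MDA-LM2 the mesenchymal median was above the epithelial one in 4 of 4 series, and in 3 of 4 in MDA-MB-231. The 16 mesenchymal transcripts are mostly CD44 (7) and ZEB1 (5), so this order rests largely on 2 genes, whose transcripts share sequence and possibly reads. Among members in range, the mesenchymal median was 0.188 ± 0.0167 in MDA-LM2, against 0.0942 ± 0.054 in MDA-MB-231, and the epithelial median was 0.0981 ± 0.0175 in MDA-LM2, against 0.119 ± 0.00553 in MDA-MB-231. The order of the 2 sides in MDA-MB-231 therefore turned round when transcripts with extreme rates were left out, while the order in MDA-LM2 did not. No test was run on these medians, because the members were chosen with earlier results known.

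**Figure D1:**
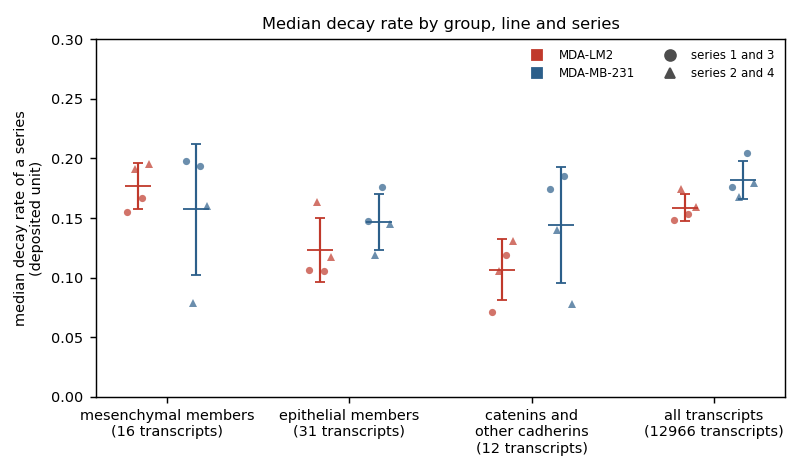
Median decay rate (deposited unit, y axis) of the mesenchymal members, the epithelial members, the catenins and other cadherins, and all transcripts, in MDA-LM2 (red, left of each pair) and MDA-MB-231 (blue, right). Points are the medians of the 4 series, horizontal bars their mean and whiskers 1 SD. The mesenchymal medians of MDA-MB-231 spread widest (0.157 ± 0.0551), and those of all transcripts are tight in both lines.

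CD24 and CD44 are cell surface glycoproteins whose balance is used to sort breast cancer cells: luminal cells are typically rich in CD24, and mesenchymal and stem-like cells in CD44. For CD24 the rates of series 1 to 4 were 0.0548, -0.0431, 0.0253 and 0.118 in MDA-LM2, against 0.172, 0.329, 0.305 and 0.322 in MDA-MB-231. The lines did not overlap, and CD24 RNA decayed more slowly in MDA-LM2, with rates around 0 there. The difference was -0.243 ± 0.048 (SE, limma adjusted p = 0.027). Leaving out MDA-LM2 series 1, 2 or 3, or MDA-MB-231 series 3 or 4, in turn raised the limma adjusted p above 0.05 (0.0617 to 0.0865), and the difference stayed between -0.28 and -0.216 whichever series was left out. CD24 also has 3 pseudogenes named after it in GENCODE, whose reads the counting could share.

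CD44 is the receptor for the matrix polysaccharide hyaluronan and is spliced into many forms. Its transcripts did not behave alike. NM_001202557 had rates of 0.139, 0.203, 0.146 and 0.223 in MDA-LM2, against 0.00314, 0.0606, 0.0072 and 0.0182 in MDA-MB-231. Every MDA-LM2 series lay above every MDA-MB-231 series, and decay of this form was faster in MDA-LM2 by 0.155 ± 0.0256 (SE, limma adjusted p = 0.0135). This call held when any 1 series was left out (limma adjusted p from 0.0124 to 0.046). NM_001001391 leaned the other way, with rates of -0.103, -0.00674, -0.105 and -0.0406 in MDA-LM2, against 0.0608, -0.0237, 0.0876 and 0.0655 in MDA-MB-231. Its lines overlapped by a single MDA-MB-231 series, and the difference of -0.111 ± 0.0332 did not pass the test (limma adjusted p = 0.0948). Without MDA-MB-231 series 2 it did (-0.135, limma adjusted p = 0.0364), and with correlated series it did not (limma adjusted p = 0.278).

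The other CD44 transcripts in range, NM_001001389 (-0.0231 ± 0.0781) and NM_001202555 (-0.0103 ± 0.0953), had differences within their SE. NM_001001390 had low rates in MDA-LM2 (0.1, -0.0264, 0.208 and -0.000387) and high ones in MDA-MB-231 (9.51, 2.5, 3.01 and 2.84). These lines did not overlap either, but the wide spread in MDA-MB-231 left a difference of -4.39 ± 1.62 (limma adjusted p = 0.147). Without MDA-MB-231 series 1 the difference was -2.71 (limma adjusted p = 0.000831). With rates clipped to within 1 of 0 the limma adjusted p was 0.000338, and with correlated series it was 0.399. NM_001001392 had 0.00845 to 0.271 in MDA-LM2, against 0.186, 9.15, 0.189 and 9.21 in MDA-MB-231. NM_001202556 had -0.0543, 0.0644, 0.0517 and -2.2 in MDA-LM2, against 9.41, -1.98, 9.42 and 0.33 in MDA-MB-231. In MDA-MB-231 the rates above 8 of NM_001001392 thus fell in series 2 and 4 and those of NM_001202556 in series 1 and 3, while NM_001001390 was beyond 1 in all 4. The median over the 7 transcripts of CD44 was 0.0793 ± 0.0642 in MDA-LM2, against 0.151 ± 0.0495 in MDA-MB-231, with no call at the level of the gene (limma adjusted p = 0.277). CD44 is overlapped on the opposite strand by CD44-AS1, and whether counting used strand is not given in these sources.

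Vimentin is the intermediate filament protein of mesenchymal cells. VIM RNA was among the slowly decaying transcripts of both lines, with a median rate above those of 13.3% of transcripts in MDA-LM2 and 16.0% of transcripts in MDA-MB-231. Its rates were 0.0215, 0.0551, 0.0253 and 0.0384 in MDA-LM2, against 0.0692, 0.0752, 0.0909 and 0.0721 in MDA-MB-231. The lines did not overlap (two-sided exact permutation p = 0.0286, the smallest that 4 against 4 can give). That permutation treats all series as exchangeable, which series correlated in pairs are not. The difference of -0.0418 ± 0.0135 did not pass across all transcripts (limma adjusted p = 0.11, and 0.33 with correlated series). VIM-AS1 overlaps it on the opposite strand. EPCAM, the epithelial adhesion molecule, had rates of 0.0907, -0.0784, -0.027 and 0.00105 in MDA-LM2, against -0.0381, 0.372, 0.0349 and 0.349 in MDA-MB-231. In MDA-MB-231 its high rates were in series 2 and 4 alone, and the lines overlapped (difference -0.183 ± 0.104, limma adjusted p = 0.295).

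**Figure D2:**
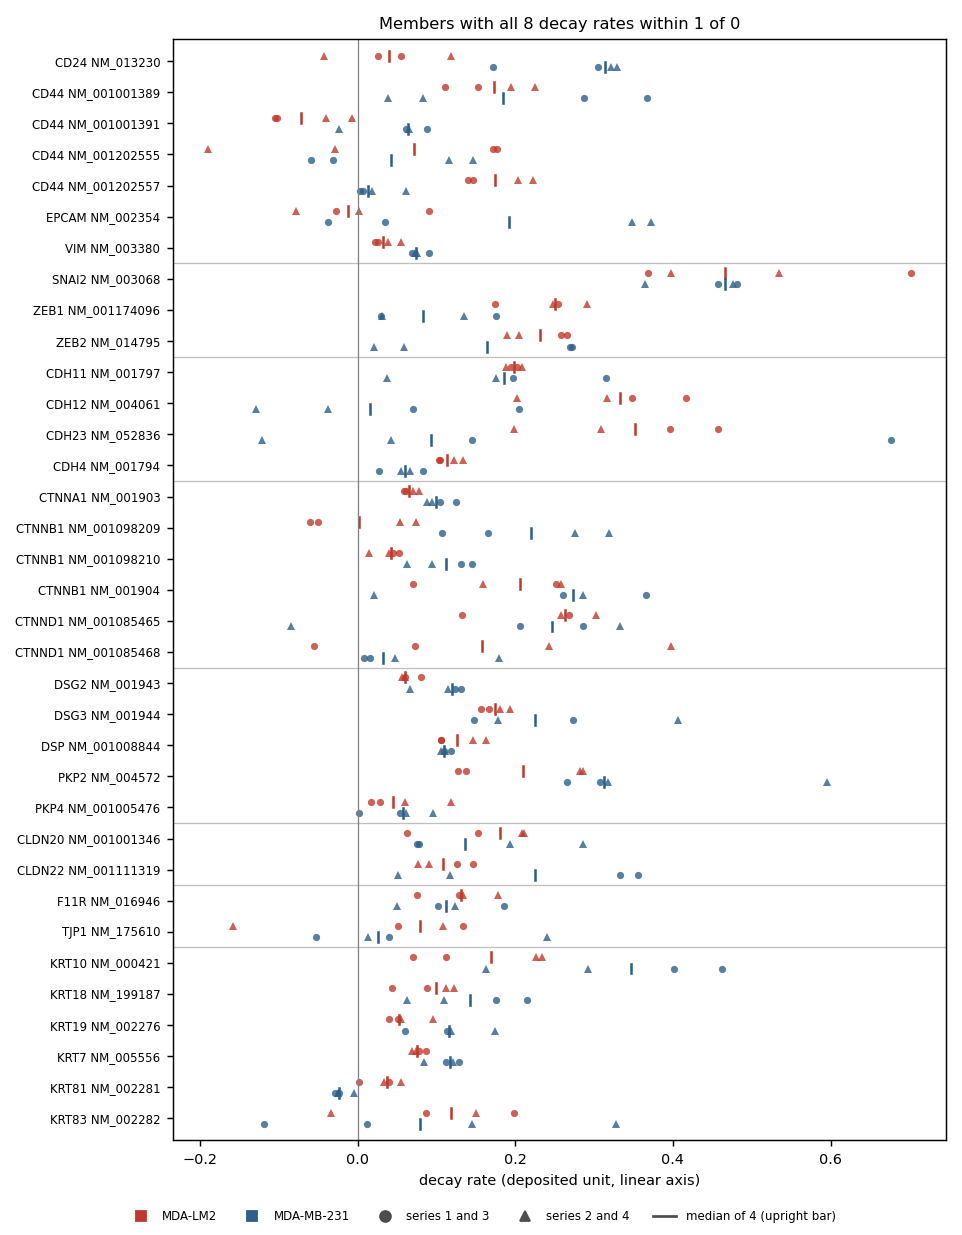
Decay rate (deposited unit, linear x axis) of the 35 members in range, 1 row per transcript, with MDA-LM2 (red) above MDA-MB-231 (blue) in each row; circles are series 1 and 3, triangles series 2 and 4, and upright bars the median of 4. Gray lines part the roles, from surface and filament genes at the top to keratins at the bottom. CD24 and the last CD44 transcript show no overlap of the lines, and SNAI2 has the highest medians.

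Among the EMT transcription factors, SNAI2 RNA was the fastest of all members in range in both lines. SNAI2 is a zinc-finger repressor of E-cadherin. Its rates were 0.369, 0.535, 0.702 and 0.397 in MDA-LM2, against 0.457, 0.476, 0.481 and 0.365 in MDA-MB-231. The lines overlapped fully and the difference of 0.056 ± 0.08 was below its SE (limma adjusted p = 0.648). Its median rate was above those of 92.0% of MDA-LM2 transcripts and 73.9% of MDA-MB-231 transcripts; the high clusters take up the top of the second ranking. ZEB2, a homeodomain and zinc-finger repressor, had 0.258, 0.205, 0.266 and 0.189 in MDA-LM2, against 0.27, 0.0585, 0.272 and 0.0203 in MDA-MB-231. MDA-MB-231 series 1 and 3 matched MDA-LM2, and series 2 and 4 were far lower (difference 0.0744 ± 0.0663, limma adjusted p = 0.481).

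ZEB1, the paralog of ZEB2, had 5 transcripts, of which NM_001174096 was in range. Its rates were 0.174, 0.248, 0.254 and 0.291 in MDA-LM2, against 0.0301, 0.031, 0.175 and 0.135 in MDA-MB-231. The lines overlapped by less than 0.001, at 1 series of each, and the difference of 0.149 ± 0.0432 did not pass (limma adjusted p = 0.0876). It passed with series centred on their medians (0.172, limma adjusted p = 0.0378), but not with correlated series (limma adjusted p = 0.352). In the main fit, NM_001174093 was the form called faster in MDA-LM2. It had rates of 9.34, 9.32, 9.37 and 9.29 in MDA-LM2, against 0.199, -8.03, 0.256 and 0.115 in MDA-MB-231. All MDA-LM2 values stood in the high cluster and none of MDA-MB-231 did, and 1 MDA-MB-231 series was strongly negative (difference 11.2 ± 2.06, limma adjusted p = 0.0207). Without that series, MDA-MB-231 series 2, the difference was 9.14 (limma adjusted p = 0.000343), and without any 1 MDA-LM2 series the adjusted p was between 0.0606 and 0.0644. The other 3 forms had the lower mean in MDA-LM2, and none passed. All their MDA-LM2 rates lay between 0.00977 and 0.269. In MDA-MB-231 NM_001128128 and NM_001174094 reached 9.31 to 9.4 in series 2 and 4, and NM_030751 reached 2.9 in series 2. The sign for NM_030751 rested on that series. Without it the difference turned from -0.602 to 0.0855 (limma adjusted p = 0.162). Over the 5 transcripts the median was 0.223 ± 0.0189 in MDA-LM2, against 0.862 ± 1.36 in MDA-MB-231, with no call for the gene (limma adjusted p = 0.5). ZEB1-AS1 and ZEB2-AS1 overlap these genes on the opposite strand.

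ZEB1 and ZEB2 also stood apart from the other members in the sequence of their 3′ untranslated regions (UTRs). The miR-200 family, which restrains both factors in epithelial cells, falls into 2 seed groups that differ by a single base, shown because they define the matches counted below. Mature sequences from RefSeq (GRCh38.p14), 5′ to 3′, have the seed, bases 2 to 8, in capitals.
miR-200a-3p: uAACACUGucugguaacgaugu
miR-141-3p: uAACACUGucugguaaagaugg
miR-200b-3p: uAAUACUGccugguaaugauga
miR-200c-3p: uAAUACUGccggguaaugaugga
miR-429: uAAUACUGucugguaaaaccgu

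The DNA letters that pair with these seeds are CAGTGTT and CAGTATT, searched on the transcript strand only. In the GENCODE 29 annotation (GRCh38), 41 member genes were matched to a transcript, 39 with a 3′ UTR, and the longest annotated 3′ UTR of each gene was read. The ZEB1 3′ UTR of 2549 bases held CAGTATT 6 times and CAGTGTT 3 times, and the ZEB2 3′ UTR of 5370 bases held them 5 and 4 times. No other member held more than 2 of both together. Only 6 of 10465 measured genes with a 3′ UTR held 8 or more, ZEB1 and ZEB2 among them. CAGTATT was in 20.5% of member UTRs (8 of 39) and 18.1% of all, and CAGTGTT in 15.4% of member UTRs (6 of 39) and 19.7% of all, with no test of the difference. Stretches of 25 bases from both UTRs show such a match in capitals.
ZEB1, chr10:31527624-31527648 (+ strand): ttatcttatCAGTATTatcactctt
ZEB1, chr10:31528037-31528061 (+ strand): catcagaatCAGTGTTtgtgattgt
ZEB2, chr2:144388981-144389005 (- strand): acaatgcatCAGTATTatgattcct
ZEB2, chr2:144388661-144388685 (- strand): caccagcttCAGTGTTaagctcacc

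AU-rich elements mark many short-lived mRNAs, and their minimal form is the pentamer ATTTA. It was in 71.8% of member UTRs and 72.0% of all, on the transcript strand. The longer nonamer TTATTTATT, which contains the pentamer, was in 2 members, ZEB1 (1 copy) and ZEB2 (2 copies), or 5.13% of member UTRs, against 8.96% of all. An example from each, with the nonamer in capitals, follows.
ZEB1, chr10:31528652-31528676 (+ strand): atatttctTTATTTATTacacagtg
ZEB2, chr2:144388430-144388454 (- strand): tcctaattTTATTTATTtcatactg

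These matches are a description of letters, and no binding or effect on decay was measured. The forms in range of ZEB1 and ZEB2 had mean rates of 0.242 and 0.229 in MDA-LM2, against 0.0928 and 0.155 in MDA-MB-231. These genes had the most matches, but the UTR read was the longest of each gene and may not belong to those forms. SNAI2, the fastest, held 1 CAGTATT, 2 pentamers and no nonamer in a UTR of 1039 bases. The slow members KRT18, KRT19, KRT7 and VIM had UTRs of 59, 126, 161 and 321 bases, against a median of 1157 over all genes. PKP4 NM_001005476 and DSG2 were slow too, and the UTRs of these genes had 2202 and 2265 bases. KRT10, the fastest keratin in range, had a UTR of 359 bases, and that of KRT80 was 2527 bases long. A link between UTR length and decay was not tested.

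All 4 cadherins outside the desmosome were in range and had higher mean rates in MDA-LM2, and none passed the test. These cadherins are calcium-dependent adhesion molecules. Of all transcripts in range, 57.5% had the lower mean in MDA-LM2. The differences of CDH11 and CDH23 were within their SE. CDH11, the cadherin of mesenchymal cells, had 0.202, 0.188, 0.194 and 0.208 in MDA-LM2, against 0.196, 0.0371, 0.315 and 0.175 in MDA-MB-231. The MDA-LM2 series were tight and lay inside the spread of MDA-MB-231 (difference 0.0174 ± 0.0548, limma adjusted p = 0.843). CDH12, a neuronal cadherin, had 0.417, 0.316, 0.348 and 0.202 in MDA-LM2, against 0.205, -0.038, 0.07 and -0.129 in MDA-MB-231. The highest MDA-MB-231 series just passed the lowest of MDA-LM2, and the difference was 0.294 ± 0.0796 (limma adjusted p = 0.0752). It passed when transcripts in range were fitted alone (limma adjusted p = 0.0449) and when MDA-MB-231 series 1 was left out (0.0342). With correlated series it did not (limma adjusted p = 0.212). CDH12 has 4 named pseudogenes. CDH4, or R-cadherin, had 0.104, 0.134, 0.105 and 0.122 in MDA-LM2, against 0.0272, 0.0542, 0.0824 and 0.0665 in MDA-MB-231. The lines did not overlap, and the difference of 0.0584 ± 0.017 missed the threshold (limma adjusted p = 0.0888). It passed when each series was first centred on its own median (limma adjusted p = 0.013), but not with correlated series (0.321). CDH23, a cadherin of hair cell tip links, lay between 0.198 and 0.457 in MDA-LM2, against a range of -0.121 to 0.676 in MDA-MB-231.

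Catenins tie cadherins to the cytoskeleton, and beta-catenin (CTNNB1) is also the transcriptional effector of Wnt signalling. Its 3 transcripts all had lower mean rates in MDA-LM2, and none passed. NM_001098209 had -0.0511, 0.0538, -0.0609 and 0.0735 in MDA-LM2, against 0.107, 0.319, 0.165 and 0.276 in MDA-MB-231. NM_001098210 had 0.0527, 0.0396, 0.0453 and 0.0147 in MDA-LM2, against 0.131, 0.062, 0.145 and 0.0942 in MDA-MB-231. Neither of these forms overlapped between lines, with differences of -0.213 ± 0.0569 (limma adjusted p = 0.0727) and -0.0701 ± 0.0219 (limma adjusted p = 0.104). The first passed when transcripts in range were fitted alone (limma adjusted p = 0.0435), but not with correlated series (limma adjusted p = 0.153). NM_001904 overlapped, with -0.0486 ± 0.0814. Alpha-catenin (CTNNA1) had 0.0591, 0.0781, 0.0606 and 0.0705 in MDA-LM2, against 0.105, 0.0947, 0.125 and 0.0883 in MDA-MB-231. It was slow and tight in both lines, without overlap, and the difference of -0.0361 ± 0.0141 had a limma adjusted p of 0.166.

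The p120 catenin gene CTNND1, whose product keeps cadherins at the cell surface, had 5 transcripts in both lines and the most scattered rates of the catenins. NM_001085469 had 0.412, -0.0407, 0.366 and -0.111 in MDA-LM2, against 9.62, 1.18, 9.65 and 9.62 in MDA-MB-231. The lines did not overlap, and the difference was -7.36 ± 2.11 (limma adjusted p = 0.0851). Without MDA-MB-231 series 2 it was -9.47 (limma adjusted p = 0.00059). With correlated series the limma adjusted p was 0.318. NM_001085467 had 0.0394, 0.00443, 1.94 and 0.0368 in MDA-LM2, against 1.2, 9.66, 1.21 and 1.18 in MDA-MB-231. NM_001085464 had 0.0412 to 0.139 in MDA-LM2, against 0.271, 0.1, 0.214 and 9.64 in MDA-MB-231. A single series in the high cluster set the MDA-MB-231 mean of each. The forms in range, NM_001085465 and NM_001085468, had mean rates of 0.24 and 0.164 in MDA-LM2, against 0.185 and 0.0625 in MDA-MB-231. These had the higher mean in MDA-LM2 and the other 3 the lower, so the sign of the CTNND1 difference depended on the transcript. CTNND1 shares a strand with the readthrough gene TMX2-CTNND1, and reads cannot be told apart there.

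Claudins form the paracellular seal of tight junctions, and rates beyond 1 made up 1 of 28 claudin values in MDA-LM2, against 12 of 28 (42.9%, all above 8) in MDA-MB-231, the largest share of any role there. CLDN24 was the member with the smallest adjusted p. Its rates were 0.0797, 0.199, -0.0271 and 0.0265 in MDA-LM2, against 9.36, 9.57, 9.33 and 9.31 in MDA-MB-231. The lines were on either side of the gap between the main body and the high cluster, and the difference of -9.32 ± 0.564 passed (limma adjusted p = 6.85e-05) and held without any 1 series. CLDN24 and its neighbour CLDN22 are close paralogs without introns, so reads may be shared between them. CLDN22 went by series pair instead: 0.125, 0.0767, 0.146 and 0.0901 in MDA-LM2, against 0.332, 0.0513, 0.355 and 0.118 in MDA-MB-231 (difference -0.105 ± 0.0733, limma adjusted p = 0.382). WWC2 overlaps CLDN22 on the opposite strand.

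CLDN4, a claudin typical of simple epithelia and known as a receptor of a clostridial toxin, had 0.69, 0.288, 0.256 and 0.394 in MDA-LM2, against 9.37, 9.45, 0.276 and 9.26 in MDA-MB-231. A single MDA-MB-231 series lay among those of MDA-LM2. The difference of -6.68 ± 2.25 had a limma adjusted p of 0.118 with that series, MDA-MB-231 series 3, and 0.00082 without it. With correlated series the limma adjusted p was 0.374. CLDN7 had 0.421, 0.148, 0.156 and -0.00398 in MDA-LM2, against -0.188, 9.39, -0.128 and 9.29 in MDA-MB-231, split by series pair. CLDN12 (NM_001185072) was split the other way, with 0.149, 0.328, 9.7 and 0.241 in MDA-LM2, against 9.76, 0.027, 9.77 and 0.0245 in MDA-MB-231. CLDN15 had -0.00309 to 0.347 in MDA-LM2, against 0.217, -0.323, 0.346 and 9.43 in MDA-MB-231. CLDN20, the other claudin in range, had the same mean in both lines to within 0.001: 0.159 ± 0.0693 in MDA-LM2, against 0.158 ± 0.101 in MDA-MB-231.

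**Figure D3:**
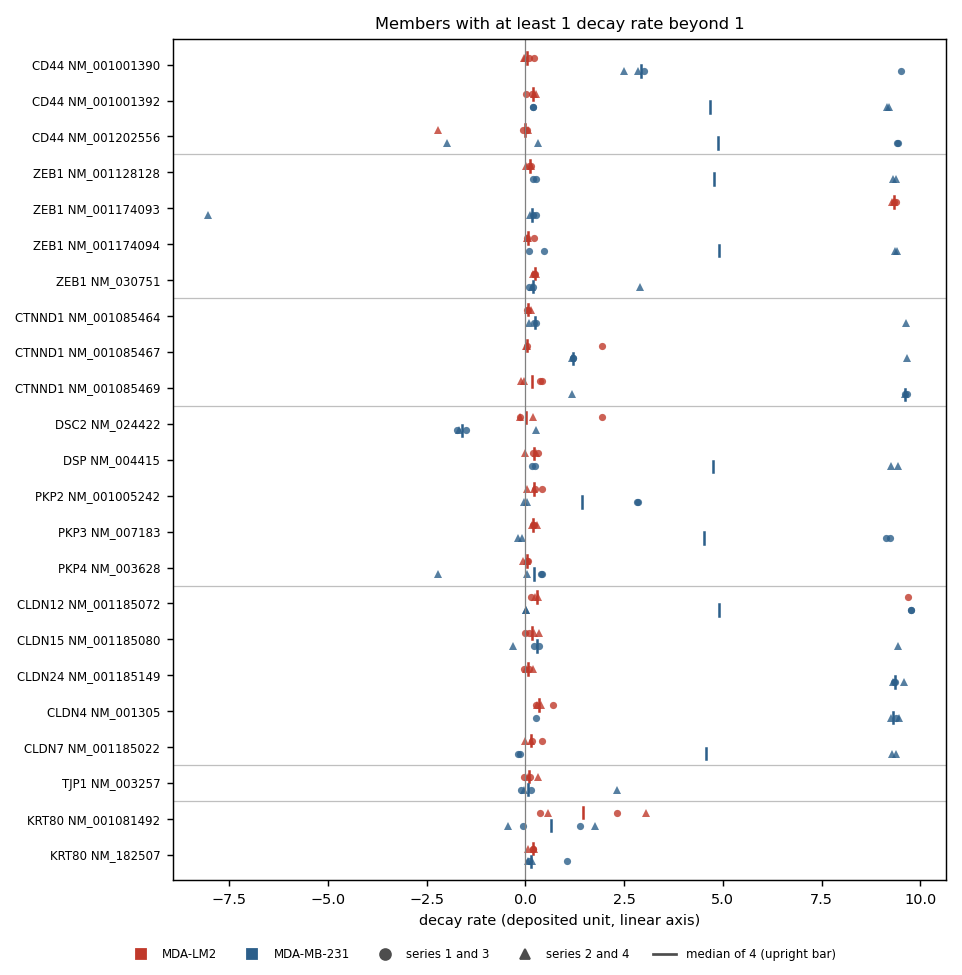
Decay rate (deposited unit, linear x axis) of 23 of the 24 members with at least 1 rate beyond 1, 1 row per transcript, with MDA-LM2 (red) above MDA-MB-231 (blue); circles are series 1 and 3, triangles series 2 and 4, and upright bars the median of 4. Most MDA-LM2 points lie near 0, ZEB1 NM_001174093 lies at 9.29 to 9.37 in MDA-LM2, and many MDA-MB-231 pairs of like symbols lie together above 8.

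Of the other tight junction genes, F11R and TJP1 did not pass the test. F11R, or JAM-A, an immunoglobulin-like adhesion molecule of the junction, had 0.129, 0.179, 0.0757 and 0.133 in MDA-LM2, against 0.101, 0.0492, 0.186 and 0.123 in MDA-MB-231. TJP1, or ZO-1, a scaffold that binds claudins to actin, had in NM_175610 a mean of 0.0335 ± 0.132 in MDA-LM2, against 0.0596 ± 0.126 in MDA-MB-231. These lines overlapped throughout. Its other form, NM_003257, lay within 1 of 0 except in 1 MDA-MB-231 series, at 2.33. Occludin (OCLN), a membrane protein of the tight junction, had a rate in MDA-LM2 alone, of 0.326, 0.218, 0.314 and -0.0327.

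Desmosome genes had 10 transcripts in both lines and no call, with unadjusted limma p under 0.05 in 2 of 10 (25.2% of all transcripts). Desmoplakin (DSP), which anchors keratin filaments, had in NM_001008844 rates of 0.106, 0.147, 0.106 and 0.162 in MDA-LM2, against 0.118, 0.106, 0.109 and 0.111 in MDA-MB-231. This was the tightest member in MDA-MB-231, and the lines overlapped (0.0191 ± 0.0182). Its other form, NM_004415, had -0.0151 to 0.308 in MDA-LM2, against 0.169, 9.26, 0.252 and 9.42 in MDA-MB-231, split by series pair. Desmoglein 2 (DSG2), the desmosomal cadherin of simple epithelia, had 0.06, 0.0555, 0.0799 and 0.0602 in MDA-LM2, against 0.131, 0.0669, 0.124 and 0.115 in MDA-MB-231. A single MDA-MB-231 series fell among those of MDA-LM2 (difference -0.0451 ± 0.0182, limma adjusted p = 0.18). Desmoglein 3 (DSG3), of stratified epithelia, had means of 0.174 ± 0.0161 in MDA-LM2, against 0.251 ± 0.117 in MDA-MB-231.

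Plakophilins link desmosomal cadherins to desmoplakin. PKP2 (NM_004572) had 0.138, 0.281, 0.127 and 0.286 in MDA-LM2, against 0.266, 0.596, 0.307 and 0.317 in MDA-MB-231. Series 2 and 4 of MDA-LM2 reached into the MDA-MB-231 range, and the difference of -0.164 ± 0.0829 had a limma adjusted p of 0.273. PKP4 (NM_001005476) was slow in both lines, at 0.0556 ± 0.0455 in MDA-LM2, against 0.0531 ± 0.0386 in MDA-MB-231. PKP3 had 0.168 to 0.286 in MDA-LM2, against 9.13, -0.195, 9.22 and -0.0755 in MDA-MB-231, the opposite split to that of DSP. Desmocollin 2 (DSC2), a desmosomal cadherin, had -0.14, 0.184, 1.93 and -0.147 in MDA-LM2, against -1.52, 0.258, -1.74 and -1.69 in MDA-MB-231. It had the lowest median of the members in MDA-MB-231, with 3 series well below 0, and the lines overlapped (difference 1.63 ± 0.639, limma adjusted p = 0.169).

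Keratin transcripts decayed slowly in both lines, with a median of 0.0915 ± 0.011 in MDA-LM2, against 0.115 ± 0.0154 in MDA-MB-231 over 8 transcripts. In MDA-MB-231, 9.38% of their values lay beyond 1, against 21.6% for all members. KRT7, KRT18 and KRT19 form the keratin filaments of simple and glandular epithelia, and all 3 were slow in both lines. KRT7 had 0.0872, 0.074, 0.0771 and 0.0685 in MDA-LM2, against 0.112, 0.0839, 0.129 and 0.121 in MDA-MB-231. KRT19 had 0.0391, 0.0953, 0.0504 and 0.0544 in MDA-LM2, against 0.06, 0.119, 0.113 and 0.174 in MDA-MB-231. KRT18 (NM_199187) had 0.0431, 0.112, 0.0875 and 0.122 in MDA-LM2, against 0.215, 0.0629, 0.176 and 0.11 in MDA-MB-231. Means were lower in MDA-LM2 in each of the 3, with differences from -0.0567 to -0.0348, overlapping series and limma adjusted p from 0.209 to 0.412. Over all transcripts in range the median difference was -0.0166. KRT18 has 67 named pseudogenes and overlaps KRT8 on the opposite strand, and KRT19 has 5 named pseudogenes, so their values are uncertain.

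The mean rate was higher in MDA-LM2 in 3 of the 8 keratin transcripts. Among them was the hair keratin gene KRT81, known to be expressed in some breast cancers. Its rates were 0.04, 0.055, 0.00174 and 0.0339 in MDA-LM2, against -0.0237, -0.0052, -0.0287 and -0.0245 in MDA-MB-231. Every MDA-LM2 series lay above every MDA-MB-231 series, all of which were below 0, and the difference of 0.0532 ± 0.015 missed the threshold (limma adjusted p = 0.0834). It passed with series centred on their medians (limma adjusted p = 0.0391), but not with correlated series (limma adjusted p = 0.296). KRT83, a close paralog with which it may share reads, had 0.1 ± 0.101 in MDA-LM2, against 0.0915 ± 0.191 in MDA-MB-231. KRT10, a keratin of differentiated epidermis, was the fastest keratin in range, with 0.0697, 0.234, 0.112 and 0.226 in MDA-LM2, against 0.463, 0.163, 0.402 and 0.292 in MDA-MB-231. Its lines overlapped in series 2 of MDA-MB-231 (difference -0.17 ± 0.0737, limma adjusted p = 0.209). KRT80 (NM_001081492) had the fastest mean of any keratin in MDA-LM2, 1.58 ± 1.32, against 0.657 ± 1.08 in MDA-MB-231, with SDs of the order of the means.

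**Figure D4:**
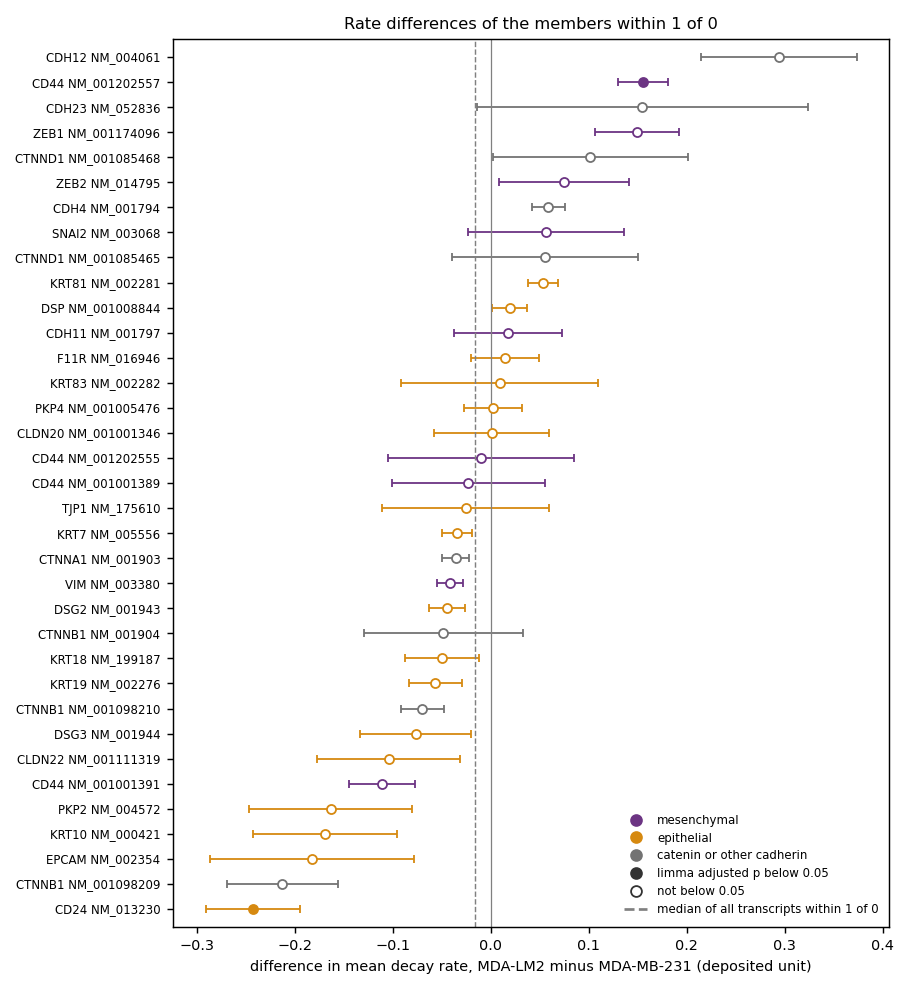
Difference in mean decay rate, MDA-LM2 minus MDA-MB-231 (deposited unit, x axis), of the 35 members in range, sorted from highest to lowest; whiskers are the limma SE over 4 series per line, and filled points have a limma adjusted p below 0.05. The filled points are CD44 NM_001202557 at 0.155 and CD24 at -0.243, and the dashed line is the median of all transcripts in range (-0.0166).

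Over all members, the median difference was negative on both sides, at -0.105 for 31 epithelial and -0.0324 for 16 mesenchymal transcripts, against -0.0538 for all transcripts. In range the mesenchymal one was positive and the epithelial one negative. The mean rate was lower in MDA-LM2 in 11 of 17 epithelial transcripts and in 4 of 9 mesenchymal ones, against 57.5% of all transcripts in range. The median difference was -0.0451 for the epithelial side, 0.0174 for the mesenchymal side and -0.0166 for all transcripts in range. With 9 transcripts of 6 genes on the mesenchymal side, 1 gene can move these counts, and no test was run on them. In range, 5 of 35 members had all MDA-LM2 rates below all MDA-MB-231 rates (background 15.1%): CD24, VIM, CTNNA1 and the first and second CTNNB1 forms above. The reverse held for 3 (background 7.65%): CD44 NM_001202557, CDH4 and KRT81.

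Partner genes of the same programmes came from lists of epithelial polarity and junction genes and of mesenchymal matrix and cytoskeleton genes. They were called slower in MDA-LM2 about as often as all transcripts (6.04%) or less. None was called faster, against 1.9% of all transcripts. Counts this small say nothing about the partners as a class. Of 37 epithelial partners 23 genes were measured, with 35 transcripts, of which 1 passed, slower in MDA-LM2. It was SPINT2, an inhibitor of membrane serine proteases such as matriptase, at -0.0341 ± 0.0185 in MDA-LM2, against 0.0818 ± 0.0367 in MDA-MB-231 (limma adjusted p = 0.0214). Among 32 mesenchymal partners, 23 genes were measured, with 33 transcripts, of which 2 passed, both slower in MDA-LM2. Fibronectin (FN1, NM_054034), the matrix glycoprotein, had 0.0083 ± 0.0365 in MDA-LM2, against 0.219 ± 0.0595 in MDA-MB-231 (limma adjusted p = 0.0131). The other FN1 form, NM_002026, had the higher mean in MDA-LM2, at 0.0342 ± 0.0415, against -0.145 ± 0.2 in MDA-MB-231 (limma adjusted p = 0.285). Caveolin 1 (CAV1, NM_001753), the coat protein of caveolae, had 0.0609 ± 0.0184 in MDA-LM2, against 0.161 ± 0.023 in MDA-MB-231 (limma adjusted p = 0.0195). The 2 other CAV1 forms had differences of 0.0392 ± 0.0732 and -0.0241 ± 0.13 and did not pass. SPINT2, FN1 NM_054034 and CAV1 NM_001753 lost their call when series sharing a second number were treated as correlated (adjusted p = 0.139, 0.101 and 0.0792). The median rate of the mesenchymal partners was 0.0601 ± 0.016 in MDA-LM2, against 0.12 ± 0.0346 in MDA-MB-231, and that of the epithelial partners was 0.158 ± 0.0173 in MDA-LM2, against 0.167 ± 0.0289 in MDA-MB-231. ACTA2, smooth muscle actin and the 1 myoepithelial marker with a rate, decayed faster in MDA-LM2, at 0.298 ± 0.0645, against -0.000297 ± 0.0365 in MDA-MB-231 (limma adjusted p = 0.00331).

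The remaining 12 members had a rate in 1 line only and enter no comparison. The 6 of MDA-LM2 included OCLN, CLDN18, a second CLDN12 form and CTNND1 NM_001206890. CTNND1 NM_001206890 alternated by series, with 9.58, -9.35, 8.31 and -9.34, and CLDN18 had 0.268 ± 0.21. The 6 of MDA-MB-231 were JUP, DSC3, KRT18 NM_000224, CD44 NM_000610, and CTNND1 NM_001085460 and NM_001085462. Plakoglobin (JUP), which sits in both desmosomes and adherens junctions, had 9.28, 9.32, 9.31 and 9.28, inside the high cluster in each series. CTNND1 NM_001085462 sat at 1.17 ± 0.0242, and DSC3, a desmocollin of stratified epithelia, at 0.0307 ± 0.0661.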

How the data were processed

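Series of 4sU-labelled RNA from MDA-LM2 and MDA-MB-231 (4 per line) were compared. The authors deposited a decay rate per transcript and series, and a signed differential score for each transcript, per the file headers. Per the submitters' processing notes, TopHat, Cufflinks and the build hg18 were used, with no roles given. The deposited score equalled, within 0.001 for all 12966 transcripts, the sign of the difference times 1 minus the p of an unequal-variance comparison, with positive values for slower decay in MDA-LM2. The files give no read depth, and so no counting interval is given.

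Identifiers were matched to symbols in a RefSeq table (12644 transcripts) and GENCODE (118), and 204 had none. As the files use hg18, coordinates belong to the GRCh38 reference sequences alone. Differences (MDA-LM2 minus MDA-MB-231) were fitted with limma 3.58.1 (R 4.3.3), with a variance trend and line as the only term; tests were two-sided and adjusted by Benjamini-Hochberg over all transcripts in both tables, and the fit was tested on simulated data. Each line's 4 rates were the replicates. No value column was left unmapped. The values of 1 gene are not reported here; they count in the totals other than those of Dixon's test. Members and lists were chosen with earlier results of these data known. Full values were given for transcripts past adjusted p 0.05, extremes of each role, the 10 largest differences and a list of classic markers; others are given by range or after their values were seen. Alternatives changed the variance model, centring, range of rates, correlation between series, block, gene-level summary, statistic and series left out.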

Additional observations from a re-analysis of the deposited data

Results flagged for a closer look

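In 20 of 126 groups of 4 series, a single series lay far from the other 3 (Dixon's outlier test, which flags about 1 group in 20 by chance, here 6.3 groups). Of these, 5 belonged to MDA-LM2 and 15 to MDA-MB-231, and 15 involved a series with a rate beyond 1. The reason for the single series was not tested.

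On the surface and filament genes, CD24 had its low MDA-MB-231 series at 0.172, with the others at 0.305 to 0.329. CD44 NM_001202556 dropped to -2.20 in MDA-LM2 series 4, NM_001001390 reached 9.51 in MDA-MB-231 series 1, and NM_000610 reached 9.36 in MDA-MB-231 series 2. Of the ZEB1 forms, NM_001174094 had 0.221 in MDA-LM2 series 1, and in MDA-MB-231 series 2 NM_001174093 had -8.03 and NM_030751 had 2.90.

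For CTNND1, NM_001085467 had 1.94 in MDA-LM2 series 3, against 9.66 in MDA-MB-231 series 2. In MDA-MB-231 NM_001085464 had 9.64 in series 4, and NM_001085469 had 1.18 in series 2 where the others were above 9.6. CLDN12 NM_001185072 reached 9.70 in MDA-LM2 series 3, CLDN15 reached 9.43 in MDA-MB-231 series 4, and CLDN4 was down at 0.276 in MDA-MB-231 series 3.

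DSC2 had 1.93 in MDA-LM2 series 3, and 0.258 in MDA-MB-231 series 2. In MDA-MB-231, PKP2 NM_004572 had 0.596 and PKP4 NM_003628 had -2.22 in series 2, KRT80 NM_182507 had 1.05 in series 3, and TJP1 NM_003257 had 2.33 in series 4.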

How the results depend on the processing

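The main counts were 2 members slower and 2 faster in MDA-LM2 (783 and 246 over all transcripts). With rates clipped to within 1 of 0, 4 were slower (1010 slower over all, 7.79%). With series centred on their medians, 5 were faster (442 faster over all). In limma at the level of genes, 0 of 38 were faster, against 210 of 10625 genes over all (1.98%). At an unadjusted limma p under 0.05, 4 of these 38 genes were faster, against 739 of 10625 genes over all. With correlated series the counts were 1 slower and 1 faster (385 and 37 over all), and by the deposited score also 1 and 1, with 139 faster over all. The series numbers did not pair the lines: deviations of series with the same number correlated at -0.0032 to 0.00731, and 2 of 4 series matched their own number best. With the replicate block, 1 member was faster (310 slower and 31 faster over all transcripts), and CD24, CD44 NM_001202557 and ZEB1 NM_001174093 had limma adjusted p of 0.135, 0.0624 and 0.111. An alternative chosen after seeing the data kept only transcripts in range and treated series that share a second number as correlated. It gave 0 slower and 0 faster in limma, among the 35 members and over the 8496 transcripts kept. The unadjusted limma p was under 0.05 for 7 of these 35 members and for 1508 of these 8496 transcripts (17.7%). The limma adjusted p of CLDN24 stayed below 0.05 in every setting that kept it. Leaving out 1 series gave 1 to 6 members slower and 1 to 3 faster, and 457 to 1082 and 91 to 352 over all. MDA-MB-231 series 2 gave the highest counts over all transcripts when left out. No setting changed the sign of a called transcript, except at the level of genes, which gave CD44 -0.0715 and ZEB1 -0.639.

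Median rates with series centred were -0.0355 (MDA-LM2) and -0.035 (MDA-MB-231) for epithelial members, 0.0183 and -0.0245 for mesenchymal ones, and -0.0522 and -0.0376 for catenins and other cadherins. In range alone they were 0.119 for epithelial and 0.0942 for mesenchymal members in MDA-MB-231, 0.134 for catenins and other cadherins in MDA-LM2, and 0.146 (MDA-LM2) and 0.153 (MDA-MB-231) for all transcripts. The mesenchymal median by gene was 0.203 in MDA-LM2.

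Some uncalled differences turned sign. Centring gave 9.23e-06 for CD44 NM_001001389 and 0.0128 for NM_001202555, and gene medians gave -2.29 for DSP and -0.404 for CTNND1, against higher means of forms in range. Leaving out 1 series gave -0.0269 to 0.0431 for CLDN20, -0.0748 to 0.0347 for CD44 NM_001001389, -0.0585 to 0.0638 for NM_001202555, -0.0183 to 0.0166 for PKP4 NM_001005476, -0.0349 to 0.104 for CTNND1 NM_001085465, -0.0306 to 0.0621 for CDH11, -0.0112 to 0.1001 for SNAI2, -0.696 to 0.113 for TJP1 NM_003257, -0.0637 to 0.0379 for TJP1 NM_175610, -0.00759 to 0.038 for F11R, and -0.855 to 0.0855 for ZEB1 NM_030751. The cause was not tested. Over the 47 named transcripts and the other settings, 414 kept direction and side of the threshold, 9 fell below it, 9 rose past it and 8 turned, and with 1 series left out 339, 9, 7 and 21 did.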
